A study of Mus musculus with 6 samples.

Results

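The genes examined here encode the 6 peroxiredoxins (Prdx1 to Prdx6), the superoxide dismutases Sod1 and Sod2, catalase (Cat) and glutathione peroxidase 1 (Gpx1). These 10 genes were chosen by name and found by their symbols among the 24394 symbols of the deposited tables. All 10 were among the 10352 genes whose mean reached 1 FPKM (a level scaled both to transcript length and to library depth), and each of them also reached it in the controls alone. RNA had been sequenced from bone marrow-derived macrophages (BMMs) of C57BL/6 mice at postnatal day 28, grown from marrow with 50 ng/ml macrophage colony-stimulating factor for 7 days. For the 3 stimulated libraries, cartilage fragments had been added for 24 h at 5 per macrophage, and the 3 control libraries came from BMMs without fragments. Cartilage of the same mice was the source of the fragments, and both groups were of the same strain. The labels do not say whether the libraries of a group came from separate cultures or animals, and the p-values therefore measure the spread between these libraries, which may be technical.

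The libraries held between 699099 and 776248 read pairs, as estimated from the deposited coverage and FPKM. The study's methods state a far larger number of reads per sample, and the reason for the gap was not tested. The 7 macrophage markers summed to 29284 to 39058 FPKM in the controls and 29846 to 40026 in stimulated BMMs, most of it Lyz2, and Mertk was listed at 0 in controls 1 and 2. Of these markers Adgre1 (350, 373 and 326 FPKM in the controls and 557, 566 and 387 in stimulated BMMs) and Itgam (346, 354 and 362 against 404, 434 and 437) had higher values in every stimulated library than in any control, without passing the threshold of limma in FPKM. Of 10 chondrocyte markers 9 were in the tables, 5 of these were listed at 0 in every library (Matn1, Matn3, Prg4, Col9a1 and Hapln1), and the list summed to 1.15 to 3.28 FPKM in the controls and 0.985 to 1.59 in stimulated BMMs. All 8 erythroid markers were listed at 0 throughout. The 8 neutrophil markers summed to 773 to 948 and 755 to 1127 FPKM and the 6 lymphocyte markers to 1.35 to 6.54 and 1.36 to 4.38 FPKM in control and stimulated BMMs. The summed FPKM of the 6 stromal markers was 152 to 169 in the controls and 103 to 119 in stimulated BMMs, most of it Col1a1 and Col1a2, while Dcn and Pdgfra had the higher mean in stimulated BMMs. Of the stromal markers tested, Col1a1 was the one whose groups did not overlap, and none passed the threshold of limma in FPKM. On a scale of read pairs per locus, described with the comparison, Adgre1 (log2 fold change 0.58, adjusted p = 3.75e-08, limma) and Itgam (0.26, adjusted p = 0.000534, limma) were called higher, and Col1a1 (-0.72, adjusted p = 1.85e-05, limma) and Col1a2 (-0.41, adjusted p = 0.00687, limma) lower. The part of these macrophage and stromal genes in the results was not tested. The study's methods give male mice, whereas Xist was present at 19.8 to 23.6 FPKM in all 6 libraries and the 4 Y-linked genes looked up were listed at 0. In RNA from whole cultures, fewer cells of a type and less RNA per cell cannot be told apart.

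Superoxide dismutases convert superoxide, which phagocytes make in large amounts with their NADPH oxidase, to hydrogen peroxide. Catalase, glutathione peroxidases and peroxiredoxins then remove the peroxide, the last by means of a reactive cysteine that thioredoxin, or for some members glutathione, reduces again. The enzymes are divided over the compartments of the cell, with Prdx1, Prdx2 and Sod1 mainly in the cytosol, Prdx3 and Sod2 in mitochondria, Prdx4 in the secretory pathway and catalase in peroxisomes.

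In stimulated BMMs, Prdx1 was 1.20-fold higher than in the controls and was the single gene of the 10 that passed the threshold in FPKM. Sod2 and Prdx5 had larger differences, 2.10-fold and 1.82-fold between the group means, which did not pass after adjustment over all genes. Cat and Prdx2 had lower values in every stimulated library than in any control, 0.879-fold and 0.786-fold, again short of the threshold. With read pairs of assembled transcripts added, as described below, the groups of Prdx2 overlapped (log2 fold change -0.03). On that scale the log2 fold changes of Prdx5 and Sod2 were 0.37 and 1.34. With limma on log2(FPKM + 0.1), 1 of the 10 genes was called higher and 0 lower, beside 0.145% of all tested genes called higher and 0.0386% called lower. At an unadjusted p under 0.05 the counts were 4 higher and 2 lower of the 10, whereas 6.52% of all tested genes reached this level in either direction. The groups did not overlap for 6 of the 10 genes, 4 of them higher and 2 lower in stimulated BMMs, against 8.73% and 6.13% of all tested genes. A positive log2 fold change was found for 7 of the 10 genes and for 52.1% of all tested genes. The median log2 fold change was 0.20 over the 10 genes and 0.02 over all tested genes.

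**Figure D1:**
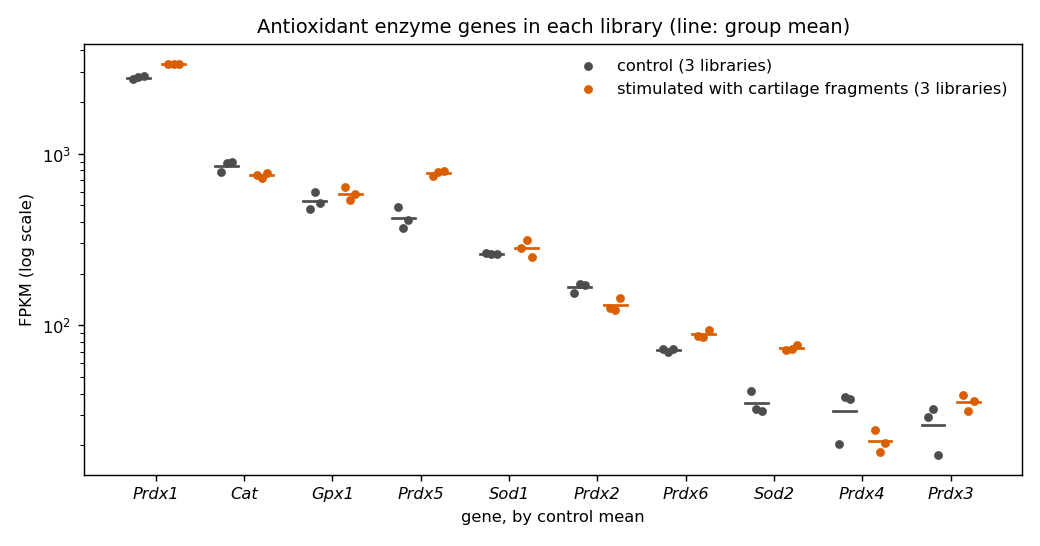
FPKM of the 10 genes (log axis) in the 3 control and the 3 stimulated libraries, with a point per library and a line at each group mean, ordered by the control mean. Prdx1 lies above all others in both groups, and the groups of Prdx1, Prdx5, Prdx6, Sod2, Cat and Prdx2 do not overlap.

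Part of the reads at some loci had been given to transcripts assembled in a single library, which carry no gene symbol and are absent from these sums. Therefore the comparison of the groups was also made on locus read pairs, that is, the estimated read pairs of a gene with the assembled transcripts of its gene ID added, relative to all read pairs of the library. This alternative was chosen after the values had been seen. On this scale limma called 2 of the 10 genes higher, Prdx1 and Sod2, and 1 lower, Cat, beside 1.39% and 0.751% of 10393 tested genes (2.14% in either direction). At an unadjusted p under 0.05 were 5 of the 10 and 11.3% of all tested genes, and the log2 fold change was positive for 7 of the 10 and for 49.9% of all. The groups did not overlap for 4 genes in the higher and 1 in the lower direction, against 9.03% and 7.43% of all tested genes. Scaled in the same way, the read pairs of the named transcripts alone gave 0 calls among the 10 genes in either direction with limma. Prdx1 and Cat had no assembled transcript at their loci. Their log2 fold changes in FPKM and on locus read pairs were similar (0.27 and 0.26 for Prdx1, -0.18 and -0.19 for Cat). Over all tested genes limma called 19 in FPKM and 222 on locus read pairs. The fit pools the spread over all genes on each scale, and its part in these calls was not tested.

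**Figure D2:**
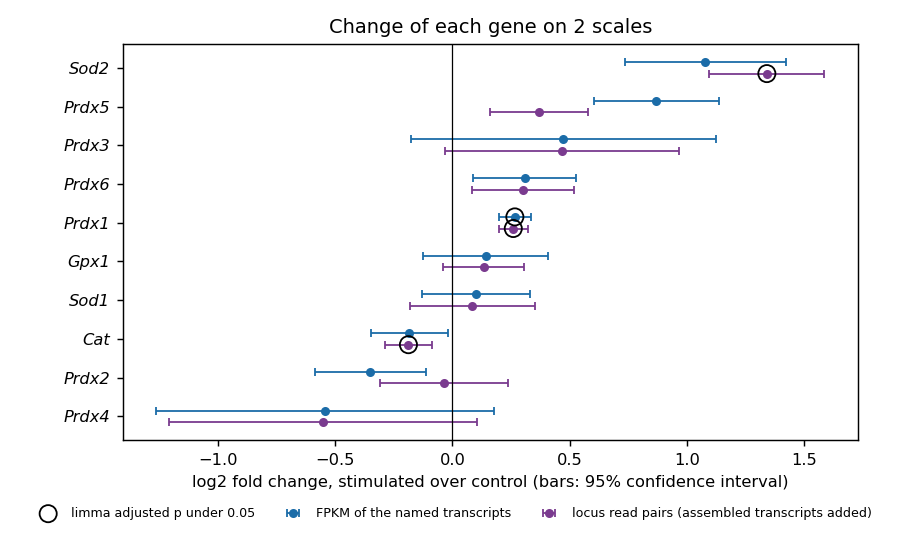
Log2 fold change of each gene, stimulated over control, in FPKM of the named transcripts (blue) and in locus read pairs, with assembled transcripts added (purple). Bars are 95% confidence intervals of limma and circles mark adjusted p under 0.05, which Prdx1 reaches on both scales and Sod2 and Cat only on the second.

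Prdx1, a cytosolic peroxiredoxin that thioredoxin reduces, spans chr4:116685599-116700000 (mm10, plus strand). Its level was 2710, 2810 and 2817 FPKM in the 3 controls and 3351, 3337 and 3341 FPKM in the 3 stimulated libraries. Every stimulated library lay above every control, and the stimulated libraries were closer to each other (SD 7.06) than the controls (SD 60.1). Counting alone gives an error of 1.99% at the lowest number of read pairs, more than this SD of the stimulated libraries. The log2 fold change was 0.27 (SE 0.03, adjusted p = 0.0467, limma with Benjamini-Hochberg adjustment). It was 0.26 on locus read pairs (adjusted p = 5.33e-06, limma) and 0.24 on the scaled read pairs of named transcripts alone (adjusted p = 0.0528, limma), with no assembled transcript at the locus. With quantile normalization it was 0.11 (adjusted p = 0.798, limma). The FPKM call rested on all 6 libraries: with any one of them left out the log2 fold change stayed between 0.25 and 0.28 with adjusted p between 0.114 and 0.257. Of the stretches of 50 bases in its annotated transcript 10.9% also occur in transcripts of other genes, chiefly Gm21399, and how the authors' counting divided such reads is not given in the sources used here.

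The 250 bases before the RefSeq start of Prdx1 (chr4:116685349-116685598, GRCm38.p6, plus strand) are shown because Prdx1 was the one gene of the 10 called in FPKM. Capitals mark matches to the antioxidant response element core, spelled TGACNNNGC and the sequence class bound by the factor Nrf2, and to the NF-kB consensus, each searched on both strands. Of 32851 promoter windows of the same length 10.2% held the first and 7.25% the second. In Prdx1 a match to the NF-kB consensus began 170 bases and one to the response element core 133 bases before the start, both on the minus strand of the gene. These matches describe letters in the window and are no measure of binding.
Prdx1: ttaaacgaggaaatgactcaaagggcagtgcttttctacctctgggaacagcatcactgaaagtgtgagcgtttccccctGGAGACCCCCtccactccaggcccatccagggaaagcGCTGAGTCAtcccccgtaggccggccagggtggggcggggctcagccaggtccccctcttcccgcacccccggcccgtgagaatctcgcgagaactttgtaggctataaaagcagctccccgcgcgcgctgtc

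Among the other peroxiredoxins, Prdx5 had the largest difference in FPKM, and its size depended on the assembled transcripts. Prdx5, an atypical peroxiredoxin found in mitochondria, peroxisomes and cytosol, spans chr19:6906819-6909645 on the minus strand. It was listed at 492, 371 and 411 FPKM in the controls and at 744, 781 and 790 FPKM in the stimulated libraries, with no overlap. The log2 fold change was 0.87 (SE 0.11, adjusted p = 0.0921, limma), and it was 0.98 with adjusted p = 0.0339 (limma) when control replicate 1 was left out. That fit kept controls 2 and 3, whose named values leave out the assembled read pairs given below. Without any one of the other 5 libraries the log2 fold change stayed between 0.78 and 0.90, with adjusted p between 0.15 and 0.322 (limma).

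In control replicates 2 and 3 an assembled transcript over the whole Prdx5 locus held a further 83.8 and 99.4 read pairs beside the 133.9 and 145.4 of the named one. Read pairs with these added were 183, 218 and 245 in the controls and 264, 266 and 263 in the stimulated libraries. The groups still did not overlap, but the log2 fold change on locus read pairs was 0.37 (adjusted p = 0.0571, limma). A further assembled line of 281 bases over the 3′ end of the gene, at chr19:6906725-6907005, held 87.5 read pairs in stimulated replicate 3 under a gene ID of its own and was not added.

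**Figure D3:**
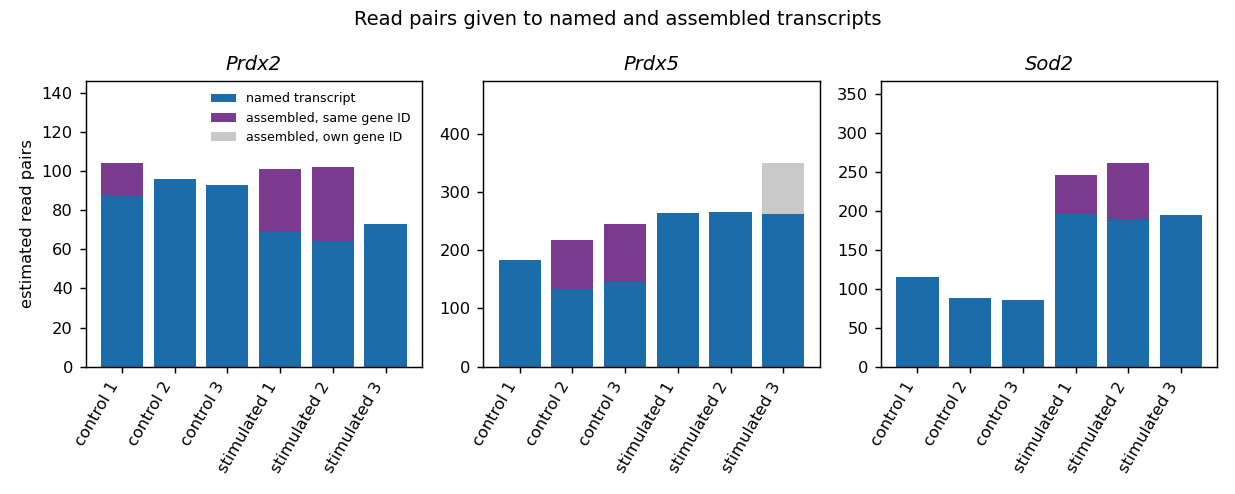
Estimated read pairs in each library at Prdx2, Prdx5 and Sod2, the loci of the 10 genes with assembled transcripts, divided into the named transcript, assembled transcripts of the same gene ID and those with their own gene ID. The assembled part lies in controls 2 and 3 and, under its own gene ID, in stimulated library 3 for Prdx5, in stimulated libraries 1 and 2 for Sod2, and in control 1 and stimulated libraries 1 and 2 for Prdx2.

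Prdx2, the close cytosolic relative of Prdx1, spans chr8:84969648-84974313 on the plus strand. It was listed at 155, 173 and 171 FPKM in the controls and at 126, 122 and 144 FPKM in stimulated BMMs, and the groups did not overlap. In FPKM the log2 fold change was -0.35 (SE 0.10, adjusted p = 0.526, limma). Read pairs with the assembled transcripts added were 104, 95.9 and 92.8 in the controls and 101, 102 and 73.2 in stimulated BMMs, so that stimulated replicates 1 and 2 fell among the controls. The difference on that scale was -0.03 (adjusted p = 0.96, limma), with an interval of the log2 fold change from -0.31 to 0.24. At its 5′ end Prdx2 overlaps Rnaseh2a, a gene of the opposite strand, over 120 bases, and 9.65% of its stretches of 50 bases also occur in other transcripts, chiefly Tdpx-ps1. The library kit keeps strand, but whether the counting used it is not given in the sources used here.

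Prdx6, which uses a single reactive cysteine and also has phospholipase activity, spans chr1:161240112-161251210 on the minus strand. It was listed at 72.4, 70.2 and 72.6 FPKM in the controls and at 86.5, 85.7 and 94.5 FPKM in the stimulated libraries, a narrow step with no overlap. Its log2 fold change was 0.31 (SE 0.09, adjusted p = 0.539, limma), and it was 0.30 on locus read pairs (adjusted p = 0.197, limma). Of its 3 transcript lines NM_007453 carried the reads in every library, and in control replicate 3 alone a second line, NM_001303408, was listed at 10.3 FPKM beside 62.3.

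Prdx3 and Prdx4 had the lowest mean FPKM of the 10 genes in both groups. Prdx3, the mitochondrial peroxiredoxin (chr19:60864066-60874538, minus strand), was listed at 29.3, 32.4 and 17.5 FPKM in the controls and at 39.1, 31.7 and 36.2 FPKM in stimulated BMMs. Stimulated replicate 2 lay below control replicate 2, and the log2 fold change of 0.47 had an interval from -0.18 to 1.12 (adjusted p = 0.797, limma). Prdx4, which works in the endoplasmic reticulum (chrX:155323920-155338454, minus strand), was listed at 20.2, 38.4 and 37.0 FPKM in the controls and at 24.5, 18.3 and 20.7 FPKM in stimulated BMMs. Control replicate 1 lay among the stimulated libraries, and the log2 fold change of -0.54 had an interval from -1.26 to 0.18 (adjusted p = 0.794, limma). These values rest on 16.0 to 36.2 read pairs per library for Prdx3 and 10.0 to 22.2 for Prdx4, with a counting error of 25.0% and 31.6% at the lowest.

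Because FPKM is scaled to transcript length, the levels of the family can be set beside each other. Prdx1 made up 77.9%, 80.4% and 79.9% of the summed FPKM of the 6 peroxiredoxins in the controls and 76.7%, 76.3% and 75.5% in stimulated BMMs. The share of Prdx5 was 14.1%, 10.6% and 11.7% in the controls and 17.0%, 17.8% and 17.9% in stimulated BMMs. The share of Prdx2 was 4.75% ± 0.270 in the controls and 2.98% ± 0.235 in stimulated BMMs (SD, n = 3 each). That of Prdx6 was 2.05% ± 0.0377 and 2.02% ± 0.0963, while Prdx3 and Prdx4 reached at most 0.928% and 1.10% in any library. With the FPKM of assembled transcripts added, the mean share of Prdx5 was 15.5% in the controls and 17.4% in stimulated BMMs. The summed FPKM of the 6 peroxiredoxins was 3500 ± 24.5 in the controls and 4391 ± 30.6 in stimulated BMMs. These sums leave out the assembled transcripts of the same gene ID. At Prdx5 they held 193 and 235 FPKM in controls 2 and 3. At Prdx2 they held 17.9 FPKM in control 1 and 59.4 and 71.9 FPKM in stimulated libraries 1 and 2.

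**Figure D4:**
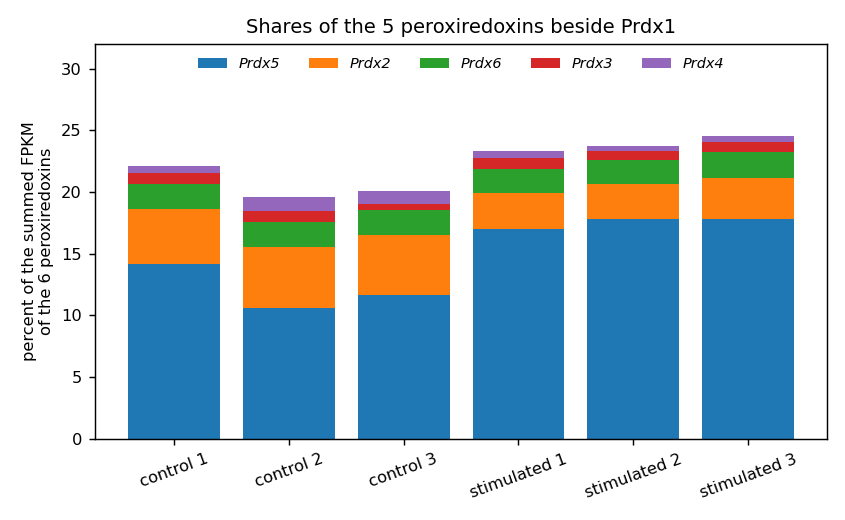
Share of Prdx5, Prdx2, Prdx6, Prdx3 and Prdx4 in the summed FPKM of the 6 peroxiredoxins (percent, stacked, with Prdx1 making up the rest) in each of the 6 libraries. Prdx5 takes 10.6% to 14.1% in the controls and 17.0% to 17.9% in stimulated BMMs, and Prdx2 takes less in each stimulated library than in any control.

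Of the superoxide dismutases, the mitochondrial manganese enzyme Sod2 had no overlap between the groups and the cytosolic copper-zinc enzyme Sod1 had. Sod2 (chr17:13007839-13018119, plus strand) was listed at 41.3, 32.5 and 31.9 FPKM in the controls and at 72.0, 73.1 and 77.1 FPKM in stimulated BMMs. The groups stood well apart, and the log2 fold change was 1.08 (SE 0.14, adjusted p = 0.103, limma). With assembled transcripts added, 116, 88.8 and 85.6 read pairs were given to Sod2 in the controls and 246, 262 and 195 in stimulated BMMs. On locus read pairs the log2 fold change was 1.34 (SE 0.12, adjusted p = 7.13e-08, limma).

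The assembled transcripts at Sod2 were of 4466 bases in stimulated replicate 1 (50.6 read pairs) and 783 bases in stimulated replicate 2 (71.8 read pairs), the latter reaching to position 13037010. The annotated gene extends to 13040063 in GENCODE, beyond the end of the named transcript in the tables. Adding these lines as FPKM gave 87.8, 249 and 77.1 in stimulated BMMs, because the short line counted as 176 FPKM, and the log2 fold change was then 1.76 (SE 0.43). In all of these forms each stimulated library lay above each control.

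Sod1 (chr16:90220742-90226324, plus strand) was listed at 264, 259 and 260 FPKM in the controls and at 282, 313 and 249 FPKM in stimulated BMMs. Stimulated replicate 3 lay below all controls and the other two above them, and the log2 fold change was 0.10 with an interval from -0.13 to 0.33 (adjusted p = 0.797, limma). Of its stretches of 50 bases 23.1% also occur in transcripts of Gm8566, and its 3′ end overlaps Scaf4 of the opposite strand over 645 bases. The ratio of Sod2 to Sod1 FPKM, which does not depend on the scaling of a library, was 0.157, 0.125 and 0.123 in the controls and 0.255, 0.234 and 0.309 in stimulated BMMs. The mean difference of the log2 ratio was 0.98 with an exact two-sided permutation p of 0.1, the smallest that 3 against 3 libraries allow.

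The promoter windows of both dismutases are shown because the pair was compared as a ratio. Sod2 (chr17:13007589-13007838, plus strand, 250 bases before the RefSeq start, GRCm38.p6) held the NF-kB consensus 83 bases before the start, read on both strands, and no match to the response element core. Sod1 (chr16:90220512-90220761, plus strand) held the response element core 56 bases before the start on the minus strand and no match to the NF-kB consensus. Capitals mark these matches as above.
Sod2: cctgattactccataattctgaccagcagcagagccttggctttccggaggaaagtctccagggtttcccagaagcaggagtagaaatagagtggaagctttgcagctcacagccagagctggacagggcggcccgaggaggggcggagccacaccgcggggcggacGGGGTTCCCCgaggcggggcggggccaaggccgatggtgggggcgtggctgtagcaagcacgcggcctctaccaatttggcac
Sod1: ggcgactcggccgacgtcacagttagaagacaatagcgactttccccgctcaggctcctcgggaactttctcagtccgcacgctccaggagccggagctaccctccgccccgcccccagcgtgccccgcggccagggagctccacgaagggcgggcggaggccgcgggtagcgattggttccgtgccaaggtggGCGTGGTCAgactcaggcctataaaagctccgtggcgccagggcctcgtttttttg

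Catalase, the peroxisomal enzyme that splits hydrogen peroxide into water and oxygen, was the second most abundant of the 10 genes in the controls. Cat (chr2:103453904-103485153, minus strand) was listed at 780, 877 and 893 FPKM in the controls and at 749, 720 and 773 FPKM in stimulated BMMs. The groups did not overlap, although control replicate 1 and stimulated replicate 3 were close. The log2 fold change was -0.18 (SE 0.07, adjusted p = 0.716, limma). Between 1215 and 1553 read pairs per library stood behind these values. On locus read pairs the log2 fold change was -0.19 (SE 0.05, adjusted p = 0.0353, limma). No assembled transcript was added at Cat, and the scaled read pairs of named transcripts alone gave -0.20 (adjusted p = 0.649, limma). The promoter window of Cat (chr2:103485154-103485403, minus strand, printed in the direction of the gene) is shown as that of the gene called lower on locus read pairs. It held the NF-kB consensus 116 bases before the start on both strands and no match to the response element core.
Cat: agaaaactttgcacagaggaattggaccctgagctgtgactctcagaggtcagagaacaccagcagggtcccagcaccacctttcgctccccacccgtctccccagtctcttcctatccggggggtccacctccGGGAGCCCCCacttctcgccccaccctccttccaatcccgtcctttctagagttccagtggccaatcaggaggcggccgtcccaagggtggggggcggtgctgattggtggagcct

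Gpx1, the cytosolic selenium-containing glutathione peroxidase (chr9:108339080-108340344, plus strand), was listed at 478, 600 and 516 FPKM in the controls and at 641, 536 and 580 FPKM in stimulated BMMs. The groups overlapped, and the log2 fold change was 0.14 with an interval from -0.12 to 0.41 (adjusted p = 0.797, limma). Of the 9 genes with a RefSeq promoter window, Gpx1 was the one with the lowest GC content, 42.0% against up to 69.2% for Prdx2 and a median of 52.4% over all windows. It held the NF-kB consensus on the minus strand 55 bases before the start, and no window of Prdx2, Prdx3, Prdx4 or Prdx5 held either motif. The Prdx5 window lies before a RefSeq start that is 461 bases upstream of the 5′ end of the listed transcript.

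Prdx1 led the order of the 10 genes by mean FPKM in both groups and ranked 10 among all tested genes in each. In the controls Cat (850 ± 61.3), Gpx1 (531 ± 62.2), Prdx5 (425 ± 61.7), Sod1 (261 ± 2.40), Prdx2 (166 ± 10.2) and Prdx6 (71.7 ± 1.36) followed, and Gpx1 and Prdx5 were not separated by their ranges. Sod2, Prdx4 and Prdx3 closed the order with overlapping ranges, at means of 35.2, 31.9 and 26.4 FPKM. In stimulated BMMs Prdx5 (772 ± 24.5) stood beside Cat (747 ± 26.3) with overlapping ranges, and Sod2 (74.1 ± 2.67) lay above both Prdx3 and Prdx4 (SD, n = 3 each). The order depended on the assembled transcripts. With their FPKM added, the mean of Prdx5 in the controls was 568 ± 77.2, above that of Gpx1. The mean of Sod2 in stimulated BMMs was then 138 ± 96.1, above that of Prdx6. The 10 genes together held 1.04% of the summed FPKM of all symbols in each control and 1.18%, 1.17% and 1.22% in the stimulated libraries. After removal of the group means, Pearson correlations over the 6 libraries between pairs of the 10 genes ran from -0.98 (Prdx1 with Sod2) to 0.95 (Prdx1 with Prdx4) with a median of -0.14 over 45 pairs. These points share library and depth, and no test was made.

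For the pair of genes with the smallest p, Prdx1 and Prdx5, the 3 genes with the most similar log2 FPKM over the 6 libraries were looked up among 5110 others. For Prdx1 these were Marco, a scavenger receptor (r = 0.998), Aldoa, a glycolytic enzyme (r = 0.997), and Irg1, which makes itaconate (r = 0.996). Their log2 fold changes were 3.95, 0.21 and 2.85. For Prdx5 the nearest genes were Agtrap (r = 0.996), Kdm2a (r = 0.996) and Sod2 (r = 0.993). With 2 groups of 3 libraries such an r largely follows the step between the groups, and 60 of the 5110 genes had an r above 0.95 with Prdx1 and 33 with Prdx5.

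The thioredoxin system, which reduces most peroxiredoxins, was followed through 18 listed genes, all of which were tested. In FPKM limma called 0 of 18, with 3 higher and 0 lower at an unadjusted p under 0.05 (6.52% of all tested genes in either direction), and the median log2 fold change was 0.11. The groups did not overlap for 4 genes in the higher direction and 3 in the lower, against 8.73% and 6.13% of all tested genes. The 3 lower ones, named after their values were seen, were Txnrd2 (log2 fold change -0.51), Txnip (-0.18) and Msrb3 (-1.23), with adjusted p of 0.777, 0.797 and 0.797 in limma. Txn1, thioredoxin itself, was listed at 215, 278 and 263 FPKM in the controls and at 325, 331 and 360 FPKM in stimulated BMMs, with no overlap and a log2 fold change of 0.43 (adjusted p = 0.465, limma). Txnrd1, the cytosolic reductase of thioredoxin, had a log2 fold change of 0.16 (adjusted p = 0.739, limma), and Msrb2, a methionine sulfoxide reductase, one of 1.06 (adjusted p = 0.514, limma). On locus read pairs 2 of the 18 were called higher (1.39% of all tested genes), Txn1 at 0.42 (adjusted p = 0.0206, limma) and Txnrd1 at 0.22 (adjusted p = 0.0305, limma). For these genes the scaled read pairs of named transcripts alone gave 0.41 and 0.15 (adjusted p = 0.6 and 0.736, limma). Srxn1, the sulfiredoxin that repairs overoxidized peroxiredoxins and was singled out after its values were seen, overlapped, at 50.1, 170 and 176 FPKM in the controls and 176, 54.1 and 175 FPKM in stimulated BMMs. Its log2 fold change was 0.05 in FPKM with an SE of 0.70, and 0.07 on locus read pairs with a smaller SE of 0.07.

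The glutathione system, which supplies Gpx1, was listed with 20 genes, of which 19 were tested and Ggt1 was listed at 0 throughout. Limma called 0 of 19 in FPKM, with 1 higher and 0 lower at an unadjusted p under 0.05 (6.52% of all tested genes in either direction), and the median log2 fold change was -0.08. The groups did not overlap for 1 gene in each direction, against 8.73% of all tested genes in the higher and 6.13% in the lower direction. Glrx, a glutaredoxin, was listed at 30.1, 38.2 and 21.8 FPKM in the controls and at 68.4, 41.7 and 55.5 FPKM in stimulated BMMs, a log2 fold change of 0.88 (adjusted p = 0.608, limma). On locus read pairs Glrx was the single gene of the list called higher, at 1.02 (adjusted p = 0.00687, limma), beside 1.39% of all tested genes. For Glrx the scaled read pairs of named transcripts alone gave 0.86 (adjusted p = 0.683, limma). Slc7a11, the cystine importer, and Gpx3, the secreted glutathione peroxidase, overlapped between the groups with log2 fold changes of 0.37 and -0.38.

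Of the 6 partners of the superoxide dismutases, 5 had a positive log2 fold change (52.1% of all tested genes) and the median was 0.33. Limma called 0 of 6 in FPKM, and 4 were higher and 0 lower at an unadjusted p under 0.05 (6.52% of all tested genes in either direction). Atox1, a copper chaperone, was listed at 590, 746 and 673 FPKM in the controls and at 861, 926 and 878 FPKM in stimulated BMMs (log2 fold change 0.41, adjusted p = 0.351, limma). The copper transporter Slc31a1 had a log2 fold change of 0.37 (adjusted p = 0.67, limma). Its relative Slc31a2 had one of 2.12 in FPKM (adjusted p = 0.351, limma) and of 0.57 on locus read pairs (adjusted p = 0.00752, limma). On locus read pairs Slc31a2 was the 1 gene of the list called higher, beside 1.39% of all tested genes. For Slc31a2 the scaled read pairs of named transcripts alone gave 2.10 (adjusted p = 0.376, limma).

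The phagocyte NADPH oxidase, the source of superoxide, was followed through 7 subunits with a median log2 fold change of 0.05. Limma called 0 of 7 in FPKM, with 1 higher and 0 lower at an unadjusted p under 0.05, the level that 6.52% of all tested genes reached in either direction. Cybb, its catalytic subunit, was listed at 482, 463 and 434 FPKM in the controls and at 583, 580 and 511 FPKM in stimulated BMMs (log2 fold change 0.28, adjusted p = 0.514, limma). On locus read pairs Cybb was the 1 subunit called higher (0.28, adjusted p = 0.00657, limma), beside 1.39% of all tested genes. For Cybb the scaled read pairs of named transcripts alone gave 0.26 (adjusted p = 0.432, limma). Ncf4 and Rac2 overlapped between the groups in FPKM with log2 fold changes of 0.38 and 0.52, and that of Rac2 was -0.070 when the FPKM of assembled transcripts were added. On locus read pairs Ncf4 and Rac2 had log2 fold changes of 0.33 and 0.30 (adjusted p = 0.226 and 0.162, limma). Their groups did not overlap there, as for 9.03% of all tested genes in the higher direction.

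**Figure D5:**
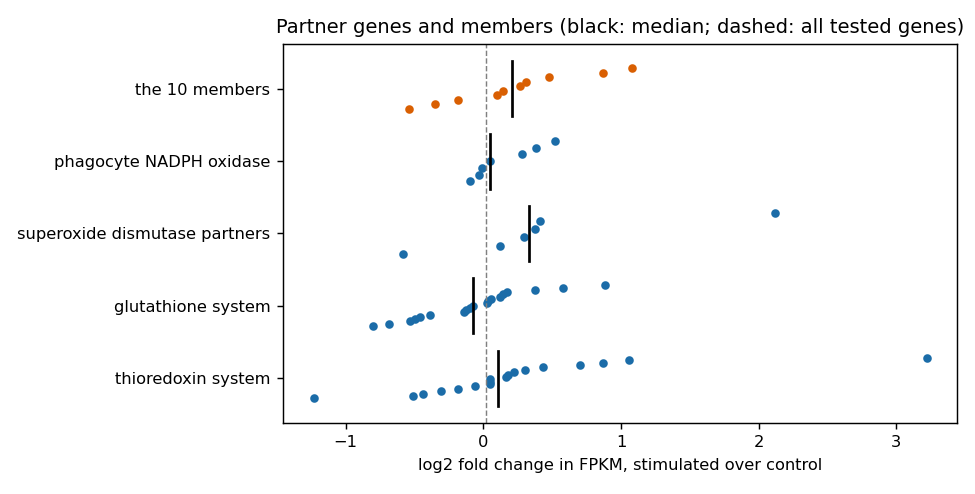
Log2 fold change in FPKM, stimulated over control, of each tested gene of the 4 partner lists and of the 10 antioxidant enzymes, with a black line at each median and a dashed line at the median of all tested genes (0.02). The medians run from -0.08 for the glutathione system to 0.33 for the superoxide dismutase partners, and the point farthest to the right is Park7 (3.22), which was listed at 0 in control replicate 1.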

How the data were processed

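Paired-end reads (100 bp) were mapped by the authors to mm10 (TopHat, Bowtie), and Cufflinks gave the deposited FPKM per transcript and library, for reference transcripts and for transcripts assembled in that library alone. Control 1 differed from the other libraries: 0 of its lines had a status other than OK, against 770 to 795. Of its well expressed lines 0% had an FPKM outside the deposited confidence bounds, against 9.58% to 10.4%. The reason was not tested, and the bounds were not used. The coverage (signal) deposited by the authors beside each FPKM is the mean read depth, and lengths are transcript lengths. The Methods also name TMM normalization, and the values do not show whether the deposited FPKM carry it. Tool versions are not given in the sources used here. Starts were raised by 1, so positions count from 1.

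FPKM were summed per symbol. Every line with a symbol was a reference transcript. Read pairs were estimated as coverage times effective length over 100, with an SD of fragment length of 80, and 93.9% to 94.7% of values up to 8.2 then lay within 0.1 of a whole number. Counting errors cover counting only. Genes whose mean reached 1 FPKM entered the test, on log2(FPKM + 0.1) with limma 3.58.1 in R 4.3.3 (trend and robust, two-sided, Benjamini-Hochberg, threshold 0.05). Locus read pairs, scaled to the library total, were tested with the same settings. Cuffdiff tests cannot be repeated from FPKM. Tables were made with pandas 2.3.3 and numpy 2.4.6 in Python 3.11.15, exact tests with scipy 1.17.1 and figures with matplotlib 3.10.9. The procedure was tested on simulated data. Promoter windows are from RefSeq, which held 9 of the 10 genes and not Prdx6.

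The 10 genes, the partner lists and the markers were chosen with earlier results of these data known. The text names all 10 genes, called list genes and the 3 of smallest p of each list, and others only where said. Alternatives changed the pseudocount, filter, scaling, unit, moderation, block and libraries.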

Additional observations from a re-analysis of the deposited data

How the results depend on the processing

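In FPKM, 7 of the 10 genes had a positive log2 fold change under every alternative chosen at the outset. Of all tested genes 15 were called higher and 4 lower. These counts were 8 and 0 with a pseudocount of 0.01, 10 lower without trend and robust moderation, 1 lower with a filter at 5 FPKM or on the scaled read pairs of named transcripts alone, and between 0 and 18 higher and 0 and 3 lower when 1 library was left out. With the FPKM of assembled transcripts added they were 32 higher, and on locus read pairs 144 higher and 78 lower. Of the 10 genes 0 were called higher without trend and robust moderation, with median-ratio factors, without a filter, with a pseudocount of 0.01, with quantile normalization or on the scaled read pairs of named transcripts alone, and 0 or 1 when 1 library was left out. On locus read pairs, with assembled transcripts added, 2 were called higher and 1 lower.

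Prdx1 had a log2 fold change of 0.27 without trend and robust moderation, without a filter and with a pseudocount of 0.01, 0.25 with median-ratio factors, 0.11 with quantile normalization, 0.24 on the scaled read pairs of named transcripts alone and 0.25 to 0.28 when 1 library was left out, each short of the threshold (adjusted p 0.0513 to 0.806, limma). Prdx5 ran from 0.78 to 0.98 when 1 library was left out. With assembled transcripts added, Prdx2 turned to 0.0057 and Rac2 to -0.070 in FPKM, and Sod2 at 1.34 and Cat at -0.19 passed on locus read pairs. On that scale Prdx2 was at -0.03 and Rac2 at 0.30. At Prdx2, Sod2 and Rac2 the values include read pairs of assembled transcripts, whereas Cat has none at its locus. The cause of these changes was not tested.

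Shares within the peroxiredoxins from read pairs divided by transcript length were 81.5% and 78.9% for Prdx1 in control and stimulated BMMs, 4.45% for Prdx2 in the controls, 10.2% and 14.7% for Prdx5, and 2.26% and 2.25% for Prdx6. With assembled transcripts added they were 76.2% and 75.4% for Prdx1, 3.93% for Prdx2 in stimulated BMMs, 15.5% for Prdx5 and 1.97% for Prdx6 in the controls.

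The replicate numbers recur in both groups, and nothing in the labels pairs them. Correlations of deviations between same-numbered libraries were 0.0311, 0.0231 and 0.01. Controls 1 and 2 correlated best with the stimulated library of their own number, and control 3 did not. With 3 libraries per group such values cannot tell whether same-numbered samples shared an animal or culture. With the replicate block limma called 0 genes higher and 0 lower of all tested genes, 0 of the 10 here, and Prdx1 had a log2 fold change of 0.27, which a block cannot alter in a balanced design, with adjusted p = 0.455. In this fit 519 genes had an unadjusted p under 0.05.

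At 699099 to 776248 read pairs per library, the 10.0 to 36.2 read pairs of Prdx3 and Prdx4 have wide counting errors.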
